A study of Mus musculus with 12 samples.

Results

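The guanylate-binding proteins (GBPs) and immunity-related GTPases (IRGs) were followed here as readouts of interferon-gamma in CD8 T cells with and without the transcription factor STAT3. The family was taken as 10 listed genes: Gbp2, Gbp3, Gbp5, Gbp6, Gbp7, Gbp9, Igtp, Irgm1, Irgm2 and Iigp1. Of these, 9 had a probe set carrying 1 gene symbol, and 7 were bright enough to be tested among 9862 genes (22180 genes had such a probe set). Gbp2 was measured only by a probe set that it shares with its neighbour Gbp2b, so its level is not reported. Gbp6 and Iigp1 had no group mean of at least 5 on the log2 scale.

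Naive CD8+ T cells from mouse spleen were the starting cells. After culture they were profiled on 12 Affymetrix arrays in 4 groups, Tc1 and Tc17 cells that were wild-type (WT) or STAT3-/- (KO). The KO cells came from Cd4cre+ STAT3fl/fl mice, in which Cre is driven by Cd4 and so acts in developing T cells. WT and KO cells were mixed 1:1 before activation with anti-CD3 (1 µg/ml) and anti-CD28 (3 µg/ml). They shared 1 culture of 4 days. Tc1 cells had IL-12 and Tc17 cells had IL-6 and TGFb for 3 of these days, and both had IL-2 on the last day. WT and KO cells were separated by sorting on allelic markers, so within a culture both genotypes had met the same secreted cytokines up to the sort. Each group had biological arrays 1 and 2 and a technical array numbered 2, which was averaged with biological array 2 to give 2 samples a group. Which biological sample the technical array repeats is not stated in the labels, and every group mean rests on this choice.

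Interferon-gamma binds a receptor of the chains IFNGR1 and IFNGR2, whose kinases are JAK1 and JAK2. Its response runs through gamma-activated sites (GAS) in promoters and induces IRF1, which binds interferon-stimulated response elements (ISRE). GBPs and IRGs are interferon-inducible GTPases that act inside the cell against pathogens enclosed in vacuoles and, for several GBPs, against bacteria in the cytosol. Among the IRGs, Irgm1, Irgm2 and Igtp (also called Irgm3) are regulators that keep the effector IRGs, such as Iigp1 (Irga6), inactive on the cell's own membranes. In T cells Irgm1 is also known for protecting dividing cells from death under interferon-gamma.

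The promoters of the family are shown first because they hold the kinds of letters through which this response is known to run. RefSeq promoter entries (GRCm38.p6, 250 bases before the transcription start searched) were found for 7 of the 10 genes, as 8 entries, since Gbp3 has 2. An ISRE-type match, GAAA, any 2 bases and GAAA again on either strand, was present in 7 of the 8 entries (all but the second of Gbp3), against 2.98% of 32851 promoter entries. A GAS-type match, TTC, any 3 bases and GAA, was present in 4 of the 8 (Gbp5, Gbp7, Igtp and Irgm2), against 7.02% of entries. Both were present in 0.332% of entries. Of 7 entries of other GBP and IRG genes, 4 had an ISRE-type and 3 a GAS-type match. The windows below run 5' to 3' on the strand of the gene, all before the start site, with the matches in capitals. In Gbp3 and in Irgm1 2 ISRE-type matches overlap and form 1 run.
Gbp7, plus strand, chr3:142530218-142530304: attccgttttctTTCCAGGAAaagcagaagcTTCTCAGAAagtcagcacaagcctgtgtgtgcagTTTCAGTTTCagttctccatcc
Gbp5, plus strand, chr3:142496757-142496902: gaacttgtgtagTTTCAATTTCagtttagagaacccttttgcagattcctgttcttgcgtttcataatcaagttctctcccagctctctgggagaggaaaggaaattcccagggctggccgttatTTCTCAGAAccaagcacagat
Gbp3, plus strand, chr3:142559987-142560015: gtcaggacacagTTTCAGTTTCTATTTCc
Igtp, plus strand, chr11:58199499-58199543: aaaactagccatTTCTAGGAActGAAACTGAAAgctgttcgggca
Irgm2, plus strand, chr11:58214890-58214934: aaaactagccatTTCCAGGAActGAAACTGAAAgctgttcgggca
Irgm1, minus strand, chr11:48871423-48871462: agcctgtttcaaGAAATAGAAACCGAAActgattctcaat
The letters TTTCAGTTTC, or their reverse complement GAAACTGAAA, recur in Gbp7, Gbp3, Igtp and Irgm2 and in the related genes Gm12250 and Tgtp1, and were found in 68 of the 32851 promoters (0.207%). The 45-base windows of Igtp and Irgm2, which are neighbours in the genome, differ at 1 base. These matches describe letters only, and binding was not measured.

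Stat3 fell by 2.85 (log2) in Tc17 KO and by 2.66 in Tc1 KO, and CD8 T cell markers such as Cd8a (11.05 to 11.54) were high on every array. The Tc17 WT technical array stood apart. Over the genes tested it correlated with the other arrays at a median of 0.933, where the rest had medians of 0.961 to 0.986, and it read low for several of the genes below, so values without it are given beside the main results. No label ties a replicate to an animal or a culture, and the p-values therefore reflect the spread of these samples alone, part of which may be technical. All differences are on the log2 scale with the standard error of the limma fit (n = 2 samples a group), and a call means an adjusted p under 0.05 (limma, Benjamini-Hochberg over the genes tested).

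Within Tc17 cultures, 5 of the 7 tested genes were higher in KO than in WT cells and none was lower. They were the GBPs Gbp7, Gbp5 and Gbp3 and the regulatory IRGs Igtp and Irgm2. The median change of the 7 was 0.97, against 0.11 over all genes tested. Calls were common in this comparison: 25.1% of genes tested were called, 18.2% as higher and 6.83% as lower. With each array centred on its median of tested genes, the median of all genes was -0.01 and 49.4% of calls were higher in place of 72.7%, and the count of the family stayed at 5. In bulk RNA, a change in the share of cells that make a transcript and a change in its amount per cell cannot be told apart.

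Gbp7 showed the widest range of the family. Its log2 value on Tc17 WT arrays was 6.90 and 6.43 on the biological arrays and 5.10 on the technical array. On Tc17 KO arrays it was 8.21, 8.43 and 7.27 in the same order. All 3 KO arrays lay above all 3 WT arrays, and in both genotypes the technical array was the lowest. Gbp7 was 1.70 ± 0.29 higher in Tc17 KO (3.24-fold, adjusted p = 0.0041). The difference was 1.13 without Tc17 WT replicate 2 and 2.26 without Tc17 WT replicate 1, both called.

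Gbp5, which is known to promote inflammasome assembly, read 5.60, 5.70 and 4.67 on Tc17 WT arrays and 6.79, 6.95 and 6.36 on Tc17 KO arrays. Every KO array was above every WT array, again with the technical arrays lowest in each group. The difference was 1.33 ± 0.15 (2.51-fold, adjusted p = 0.00052).

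Gbp3, a neighbour of Gbp5 and Gbp7 in the same gene cluster, read 3.75, 4.59 and 3.85 on Tc17 WT arrays, where it was below the level of 5 required for testing, and 5.21, 5.39 and 5.14 on Tc17 KO arrays. The groups did not overlap, and the difference was 1.25 ± 0.14 (2.38-fold, adjusted p = 0.00044). Because RMA narrows differences near background, this fold may be too small.

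Igtp read 8.78, 8.83 and 8.45 on Tc17 WT arrays and 9.77, 9.73 and 9.43 on Tc17 KO arrays. The KO arrays were all higher, by 0.97 ± 0.10 between the groups (1.96-fold, adjusted p = 0.00035). Irgm2 read 5.86, 5.84 and 5.15 on Tc17 WT arrays and 6.56, 6.55 and 6.30 on Tc17 KO arrays, also without overlap. Its difference was 0.81 ± 0.13 (1.76-fold, adjusted p = 0.0024). The 2 biological arrays of each group agreed closely for both genes, and the WT technical array was the lowest value of each.

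Gbp9 and Irgm1 did not pass the test. Gbp9, which lies in a second GBP cluster with Gbp6, Gbp4, Gbp8 and Gbp10, read 4.85, 5.49 and 5.66 on Tc17 WT arrays and 5.86, 5.80 and 5.73 on Tc17 KO arrays, a difference of 0.60 ± 0.22 (adjusted p = 0.078). Irgm1 read 5.15, 5.45 and 5.37 against 5.53, 5.45 and 5.65, a difference of 0.26 ± 0.11 (adjusted p = 0.12). Gbp9 was 0.24 without Tc17 WT replicate 1 and 0.96 without replicate 2 (adjusted p = 0.012, called). Irgm1 was 0.13 without replicate 1 and 0.39 without replicate 2 (adjusted p = 0.042, called). For both genes the KO arrays lay above the WT arrays, as they did for 33.6% of the genes tested. The 95% interval of the Irgm1 difference ran from 0.01 to 0.52.

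Both genes below the level for testing were measured on every array. Gbp6 read between 2.28 and 3.03 over the 12 arrays with the groups overlapping, so no difference was detectable for it. Iigp1, an effector IRG, read 4.32, 4.82 and 4.66 on Tc17 KO arrays, and no other array of any group exceeded 3.92. With no filter on dim genes, Iigp1 was 1.04 higher in Tc17 KO than in Tc17 WT (adjusted p = 0.0017), 1.21 higher than in Tc1 KO (adjusted p = 0.0034) and 1.21 higher than in Tc1 WT (adjusted p = 0.0029). Its Tc1 arrays, at 3.17 to 3.40, were no brighter than its Tc17 WT arrays, at 3.14 to 3.92, in contrast to the order of Gbp3, Gbp5 and Gbp7.

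Leaving out all technical arrays kept these 5 calls in the Tc17 comparison and added Gbp9 (0.66, adjusted p = 0.024). On those biological arrays alone, 1 of each number in each group, Gbp7 was 1.65 higher, Gbp5 1.22, Gbp3 1.13, Igtp 0.95 and Irgm2 0.70. With only the Tc17 WT technical array left out, Gbp7 was 1.36 higher, Gbp5 1.07, Gbp3 1.06, Igtp 0.87 and Irgm2 0.64, all called, while Gbp9 (0.64, adjusted p = 0.054) and Irgm1 (0.24, adjusted p = 0.15) were not.

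**Figure D1:**
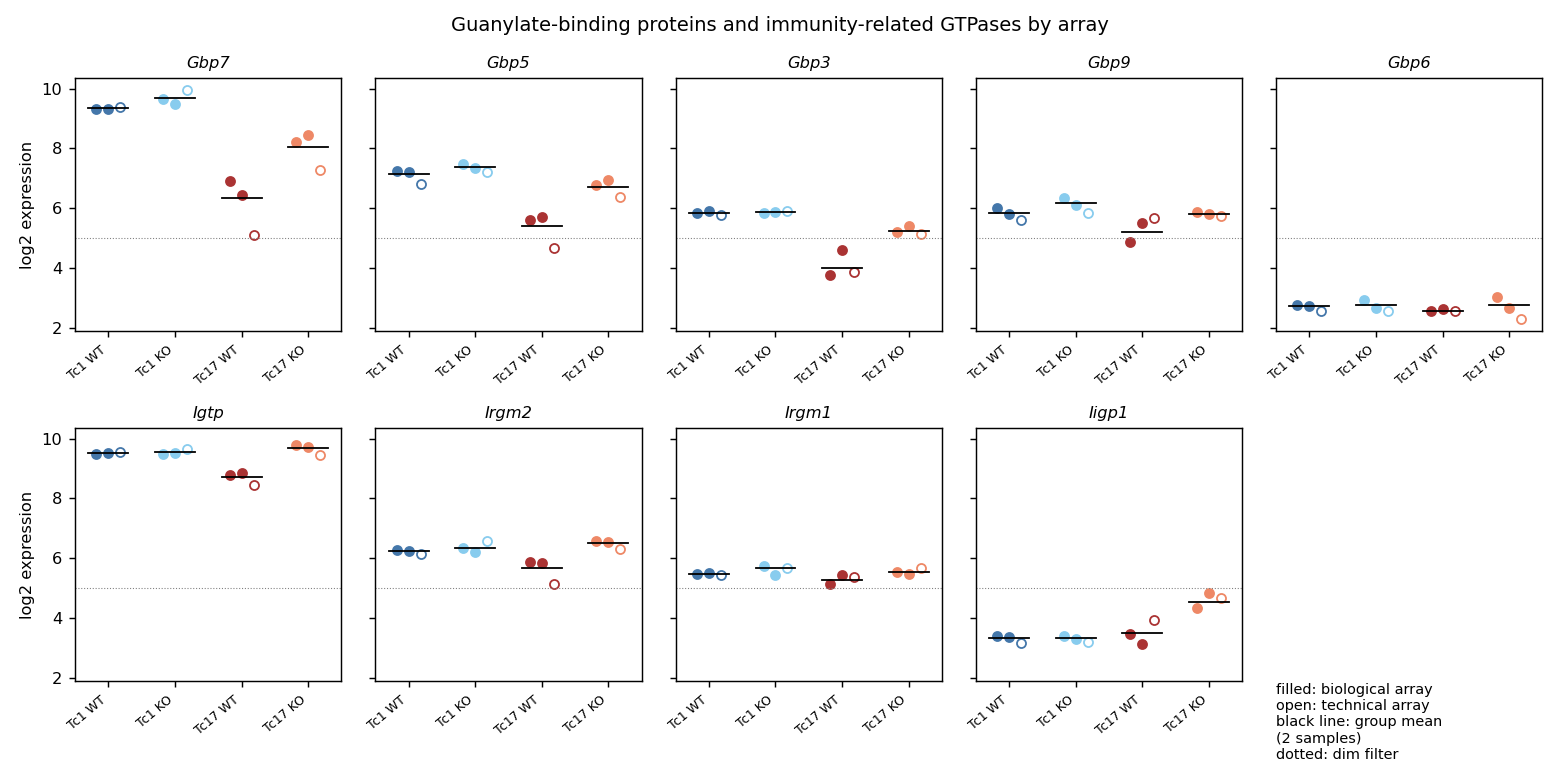
Log2 expression (y axis) of the 9 measured genes on each array of the 4 groups (x axis). Filled points are biological arrays, open points technical arrays, black lines the mean of the 2 samples of a group, and the dotted line the level of 5 required of a group mean for testing. Tc17 WT arrays lie lowest for Gbp7, Gbp5, Gbp3, Igtp and Irgm2, while Iigp1 is highest on the 3 Tc17 KO arrays.

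In Tc1 cultures none of the 7 genes passed the limma test between KO and WT (adjusted p = 0.998 for each), and 0 of the 7 had an unadjusted p under 0.05. Only 0.0608% of genes tested, 6 in all, were called there (0.0203% higher, 0.0406% lower), and 370 had an unadjusted p under 0.05 across all genes. The 7 differences ran from 0.03 to 0.34, with a median of 0.17 against 0.01 over all genes. Gbp7 read 9.33, 9.31 and 9.39 on Tc1 WT arrays and 9.64, 9.47 and 9.96 on Tc1 KO arrays, which did not overlap, and its interval of -0.33 to 1.01 was the widest. Igtp read 9.49, 9.52 and 9.54 against 9.48, 9.53 and 9.65, and its interval of -0.20 to 0.26 was narrow around 0. Gbp3 read 5.82, 5.89 and 5.78 against 5.84, 5.86 and 5.89.

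The effect of genotype was larger in Tc17 than in Tc1 cultures for 3 of the 7 genes by the test of the difference itself. Of all genes tested, 6.85% were called in this interaction, 4.48% as higher and 2.37% as lower. The difference between the effects was 1.22 ± 0.20 for Gbp3 (adjusted p = 0.0087), 1.08 ± 0.22 for Gbp5 (adjusted p = 0.021) and 0.94 ± 0.14 for Igtp (adjusted p = 0.0071). It was 1.36 ± 0.42 for Gbp7 (adjusted p = 0.089) and 0.69 ± 0.18 for Irgm2 (adjusted p = 0.052), which missed the threshold, and 0.29 for Gbp9 and 0.09 for Irgm1. Only Igtp kept its call in all 22 other analyses. Gbp3 kept it in 20 of the 22, and its losses included the analysis without the Tc17 WT technical array (1.04, adjusted p = 0.078). Gbp5 kept it in 17 of the 22, with differences of 0.82 to 1.29 over all of them. Its losses included the analyses without Tc1 WT replicate 1, Tc1 KO replicate 2, Tc17 KO replicate 1 or Tc17 KO replicate 2. Without the Tc17 WT technical array Gbp7 (1.03, adjusted p = 0.030) and Irgm2 (0.52, adjusted p = 0.027) were called. Gbp7 was also called without Tc17 WT replicate 1 (1.93, adjusted p = 0.0025), as was Irgm2 (0.88, adjusted p = 0.0099), and neither was without replicate 2 (0.79 and 0.51).

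**Figure D2:**
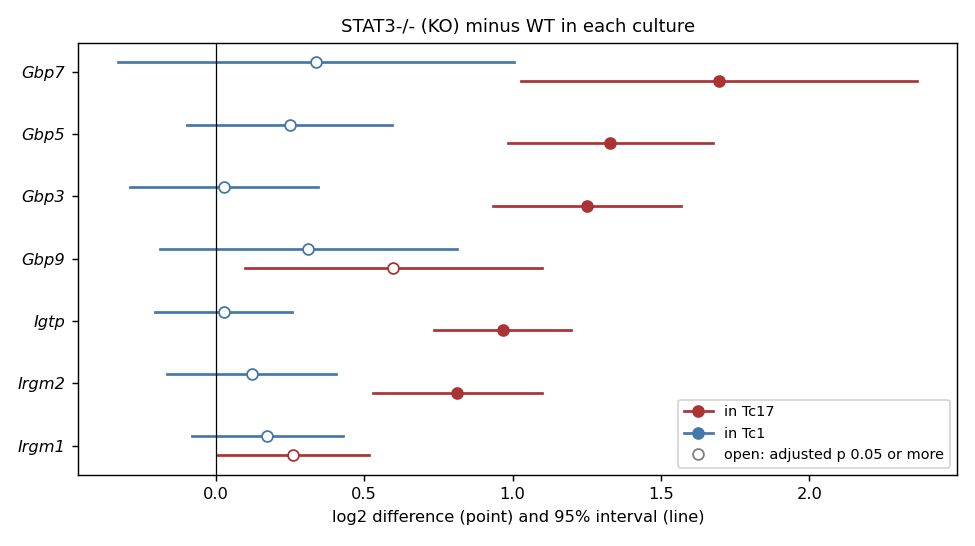
Log2 difference between KO and WT (x axis) for the 7 tested genes (y axis) in Tc17 cultures (red) and Tc1 cultures (blue), with lines for the 95% interval of the limma fit, not adjusted for the number of genes, and filled points for an adjusted p under 0.05. Filled points appear for 5 genes in Tc17 and for none in Tc1.

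Comparison of the WT cells alone set out the range over which these genes varied. In WT cells, 5 of the 7 genes were lower in Tc17 than in Tc1 and none was higher, where 25% of all genes were called, 18% as lower and 7.01% as higher. The median change was -0.80, against -0.10 over all genes. Gbp7 fell by 3.00 ± 0.29 (8.02-fold lower, adjusted p = 0.00022), from arrays at 9.31 to 9.39 down to arrays at 5.10 to 6.90. Gbp3 fell by 1.84 ± 0.14 (adjusted p = 4.4e-05) and Gbp5 by 1.74 ± 0.15 (adjusted p = 0.00011). The regulatory IRGs Igtp and Irgm2 fell by less, 0.80 ± 0.10 (adjusted p = 0.00095) and 0.55 ± 0.13 (adjusted p = 0.014). Arrays of the 2 groups did not overlap for these 5 genes, but how often this held over all genes was not counted. The Irgm2 call was lost without Tc1 WT replicate 1 (adjusted p = 0.085) or replicate 2 (adjusted p = 0.052), and the Irgm2 difference was -0.38 without the Tc17 WT technical array and -0.36 without Tc17 WT replicate 2, both called. Without the Tc17 WT technical array the other 4 fell by 2.67 (Gbp7), 1.66 (Gbp3), 1.48 (Gbp5) and 0.70 (Igtp), all called. Gbp9 (-0.63, adjusted p = 0.066) and Irgm1 (-0.20, adjusted p = 0.22) did not pass the test. Gbp9 was called without the Tc17 WT technical array (-0.68, adjusted p = 0.044) and without Tc17 WT replicate 2 (-0.995, adjusted p = 0.011), and was -0.27 without replicate 1. Irgm1 was -0.07 and -0.33 without Tc17 WT replicate 1 and 2. This comparison and the genotype comparison in Tc17 share the Tc17 WT samples.

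A further comparison asked where Tc17 KO cells stood relative to Tc1 cells, in which IL-12 had been given. None of the 7 genes was called between Tc17 KO and Tc1 WT by limma, and 3 (Gbp3, Gbp5 and Gbp7) had an unadjusted p under 0.05. Of all genes, 2.26% were called and 1026 had such an unadjusted p. The GBPs of the Gbp3 cluster remained below Tc1 WT in their measured means, and the IRGs did not. Gbp7 was 1.31 ± 0.29 lower (adjusted p = 0.063, 95% interval -1.97 to -0.64), with arrays at 7.27 to 8.43 against 9.31 to 9.39. Gbp3 was 0.59 ± 0.14 lower (adjusted p = 0.073), with arrays at 5.14 to 5.39 against 5.78 to 5.89, also without overlap. Gbp5 was 0.41 ± 0.15 lower (adjusted p = 0.34), and its arrays overlapped. Igtp was 0.17 ± 0.10 higher (adjusted p = 0.68) and Irgm2 0.27 ± 0.13 higher (adjusted p = 0.53). Gbp9 differed by -0.04 and Irgm1 by 0.06. Whether the GBPs and the IRGs differ from each other in this respect was not tested.

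Gbp7 passed the threshold in 9 of 23 other analyses of this comparison, among them without technical arrays (-0.996, adjusted p = 0.0053) and without the Tc17 WT technical array (-1.31, adjusted p = 0.0034). Gbp3 passed it in 4. Against Tc1 KO cells, Gbp7 was called lower in Tc17 KO (-1.65 ± 0.29, adjusted p = 0.023), in a comparison where 2.07% of all genes were called, 1.01% as lower and 1.05% as higher. That call was lost on leaving out any 1 of the 4 samples compared (adjusted p = 0.14 without Tc1 KO replicate 1, 0.12 without Tc1 KO replicate 2, 0.082 without Tc17 KO replicate 1 and 0.21 without Tc17 KO replicate 2). Gbp5 (-0.66, adjusted p = 0.078) and Gbp3 (-0.62, adjusted p = 0.067) were not called, and Igtp and Irgm2 each differed by 0.14.

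The order of the 4 group means was not the same for every gene. For Gbp7 the group means were 9.68 in Tc1 KO, 9.34 in Tc1 WT, 8.03 in Tc17 KO and 6.33 in Tc17 WT, and the neighbours that did not differ beyond the test were the 2 Tc1 groups and, against Tc1 WT, Tc17 KO. Gbp5 (7.38, 7.13, 6.72 and 5.39) and Gbp3 (5.86, 5.83, 5.24 and 3.99) followed the same order. For Igtp the highest mean was that of Tc17 KO, 9.68, followed by 9.54 in Tc1 KO, 9.51 in Tc1 WT and 8.71 in Tc17 WT, and only Tc17 WT differed from its neighbour. Irgm2 had the same order as Igtp, with 6.49, 6.35, 6.23 and 5.68. Irgm1 lay between 5.28 and 5.65 in all 4 groups.

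**Figure D3:**
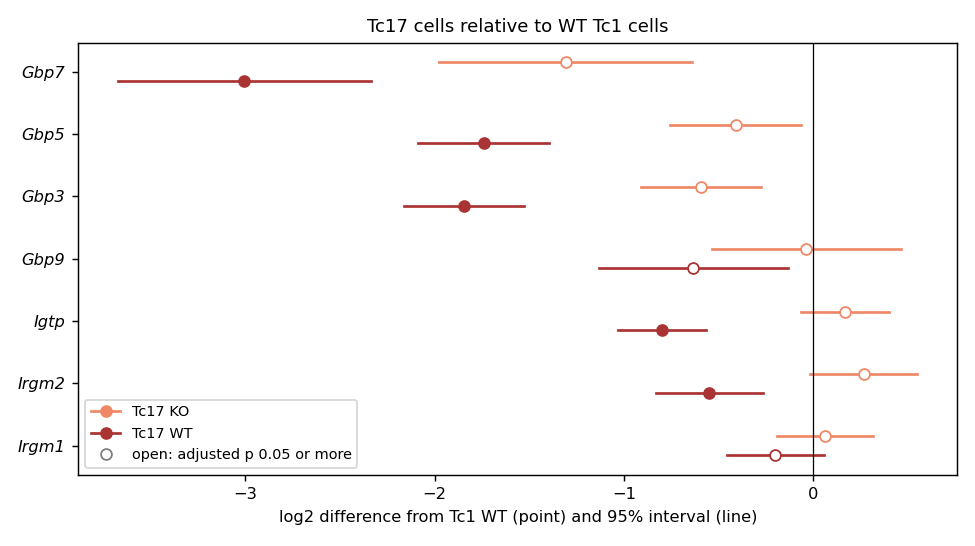
Log2 difference from Tc1 WT (x axis) of Tc17 WT (dark red) and Tc17 KO (orange) for the 7 tested genes (y axis), with lines for the 95% interval of the limma fit, not adjusted for the number of genes, and filled points for an adjusted p under 0.05. In Tc17 KO the points of Gbp7, Gbp5 and Gbp3 lie left of 0 and those of Igtp, Irgm2 and Irgm1 right of it, none of them called.

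Other genes of the 2 families could be measured in part. Of 17 further GBP and IRG genes listed, 11 had a probe set with 1 symbol and 5 were tested. Of these, 2 were called higher in Tc17 KO than in Tc17 WT and none lower (median 0.58). Over all genes tested, 18.2% were called higher and the median was 0.11. Gm12250, which encodes the effector IRG Irgb10 and lies beside Igtp and Irgm2, read 7.27, 7.17 and 5.39 on Tc17 WT arrays and 8.47, 8.41 and 8.21 on Tc17 KO arrays. The KO arrays were all higher, and the difference was 1.62 ± 0.25 (3.07-fold, adjusted p = 0.0025). It was 2.11 without Tc17 WT replicate 1, 1.13 without Tc17 WT replicate 2 and 1.17 without the Tc17 WT technical array, each called. 9930111J21Rik2, in the cluster that holds Irgm1, was 1.04 ± 0.17 higher (adjusted p = 0.0031), and 0.76 without that array (adjusted p = 0.0090). None of the 5 was called between KO and WT in Tc1 by limma. There 2 of them (9930111J21Rik2 and Gbp4) had an unadjusted p under 0.05, as had 370 of the 9862 genes tested. All 5 Tc1 differences were above 0, with a median of 0.40 against 0.01 over all genes. For 9930111J21Rik2 the Tc1 difference was 0.49, and its interaction was not called (0.55, adjusted p = 0.20). Gm12250 and 9930111J21Rik2 were lower in Tc17 WT than in Tc1 WT, by 1.41 and 0.88. For Gm12250 that difference was -1.90 without Tc17 WT replicate 1, -0.91 without replicate 2 and -0.96 without the technical array, and for 9930111J21Rik2 it was -0.60 without the technical array, all called. Gbp8 was also lower in Tc17 WT, by 0.99 (adjusted p = 0.028, lost without Tc1 WT replicate 1 or either Tc17 WT replicate). Gbp4 (0.31), Gbp8 (0.58) and Gbp10 (0.31), neighbours of Gbp9, were not called between Tc17 KO and Tc17 WT. Because GBP and IRG paralogs are close in sequence, some probes may read more than 1 of them.

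The genes that carry the interferon-gamma signal did not all move together. Of 13 listed, 12 were tested, and in Tc17 KO against Tc17 WT 4 were higher and 1 was lower (median 0.17). Of all genes tested, 18.2% were called higher and 6.83% lower there. The ligand Ifng read 4.61 to 4.88 in Tc17 WT and 6.81 to 7.29 in Tc17 KO, 2.35 ± 0.11 higher in KO, and still 0.93 below Tc1 WT (adjusted p = 0.0020). The receptor chains moved in opposite directions. Ifngr2 read 8.41 to 8.54 in Tc17 WT and 7.06 to 7.34 in Tc17 KO and fell by 1.21 ± 0.10 (adjusted p = 9.8e-05), while its Tc1 arrays were at 5.02 to 5.74. Ifngr1 was 0.36 ± 0.08 higher in Tc17 KO (adjusted p = 0.015), a call lost without Tc17 KO replicate 1 (adjusted p = 0.073) or replicate 2 (0.13) and with arrays centred on the median of tested genes (0.24, adjusted p = 0.083). The kinases Jak1 (0.21, adjusted p = 0.10) and Jak2 (-0.22, adjusted p = 0.27) were not called.

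The transcription factor gene Irf1 was 0.63 ± 0.11 higher in Tc17 KO (adjusted p = 0.0043), with arrays at 6.70 to 6.81 against 5.96 to 6.44. Socs1, an inhibitor of the receptor's kinases that interferon-gamma induces, was not called (-0.12, adjusted p = 0.36). The fourth gene called higher was Pias1 (0.48, adjusted p = 0.0084, and 0.086 without Tc17 KO replicate 2), which was named after its values were seen. In the 12 tested pathway genes limma called 0 in the Tc1 comparison, where 1 (Ifngr2) had an unadjusted p under 0.05.

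**Figure D4:**
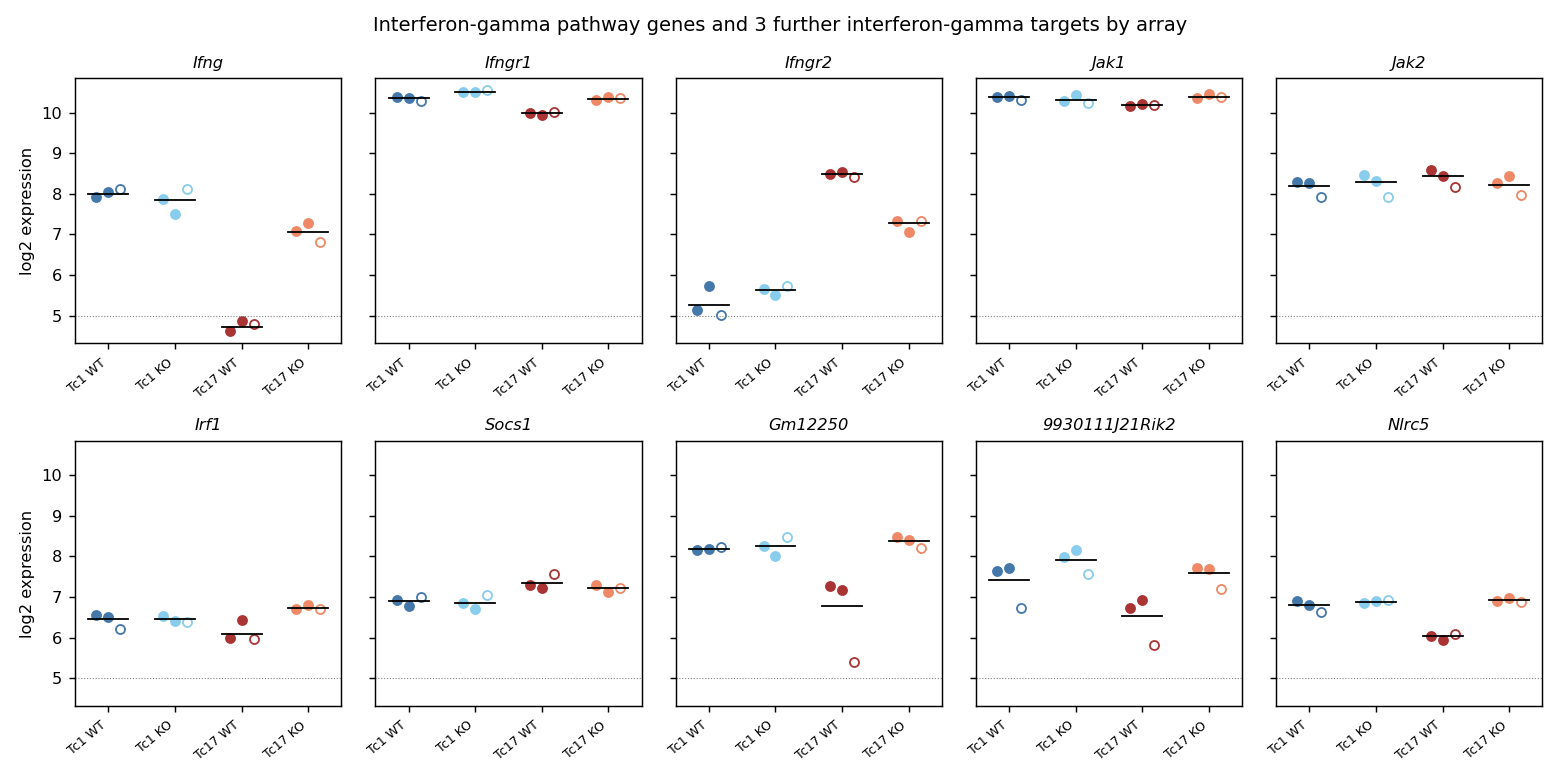
Log2 expression (y axis) on each array of the 4 groups (x axis) for 7 genes of the interferon-gamma pathway (Ifng, both receptor chains, both kinases, Irf1, Socs1) and 3 targets (Gm12250, 9930111J21Rik2, Nlrc5), with symbols as in the plot of the family by array. Ifng is lowest on the Tc17 WT arrays and Ifngr2 highest there.

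Interferon-gamma targets outside the 2 families were followed as a further list. Of 19 listed, 14 were tested, and in Tc17 KO against Tc17 WT 8 were called higher, 6 were not called and none was called lower, where 18.2% of all genes were called higher. The 14 differences ran from -0.30 to 0.89 (median 0.47), with 0 called by limma in Tc1, where 1 (Xaf1) had an unadjusted p under 0.05. Nlrc5, the activator of MHC class I genes, was 0.89 ± 0.09 higher (adjusted p = 0.00036). Psmb9, an immunoproteasome subunit, was 0.78 higher, Xaf1 0.74 and Tap1, a peptide transporter subunit, 0.68. Against Tc1 WT these genes differed in Tc17 KO by 0.10 for Nlrc5, 0.06 for Psmb9, 0.42 for Xaf1 and 0.01 for Tap1, none of them called. Of 18 genes listed as typical of type I interferon, 7 were tested and 0 were called by limma in Tc17 KO against Tc17 WT (median 0.08), with 1 at an unadjusted p under 0.05. The largest of these differences were -0.35 for Ifit3 (adjusted p = 0.066) and 0.24 for Bst2 (adjusted p = 0.19). That count was 1 or 2 in 7 of the other analyses.

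The same promoter letters were also looked up in the other genes. Outside the 2 families, 7864 tested genes had a promoter entry, and 18.4% of them were called higher and 6.27% lower in Tc17 KO against Tc17 WT. Of the 252 with an ISRE-type match, 21.03% were called higher and 9.13% lower, and their median change was 0.10 against 0.12 for all 7864. Of the 563 with a GAS-type match, 18.1% were called higher and 7.28% lower. Of the 30 with both, 26.7% were called higher and 13.33% lower. These shares are given as a description without a test.

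Markers of other cells moved with genotype in the same Tc17 comparison. Of 6 B cell markers listed, 5 were measured and 2 were tested, and both were higher in Tc17 KO, Ighm by 1.77 ± 0.10 and Cd79b by 0.78 ± 0.11. For Ighm the value was 0.52 when its probe sets were averaged. The summed linear signal of the 5 was 668 to 707 in Tc17 WT, 1970 to 2370 in Tc17 KO, 1523 to 1539 in Tc1 WT and 1467 to 1846 in Tc1 KO. Ighm was by far the brightest (log2 9.03 to 11.08, against 6.44 to 7.62 for Cd79b), so this sum mostly follows Ighm. The defining B cell genes Ms4a1, Cd79a and Pax5 were at or under 4.31 on every array, below the level for testing. They did not follow Ighm: Ms4a1 was lower on every Tc17 KO than on every Tc17 WT array, and Cd79a and Pax5 overlapped. Of 8 macrophage and monocyte markers, 7 were measured, and the only 1 bright enough to be tested, Cd68, fell by 1.12 ± 0.11. The other 6 were at or under 4.58 on every array. Among them Csf1r was higher on every Tc17 KO than on every Tc17 WT array, and the rest overlapped. The summed signal of the 7 was 302 to 326 in Tc17 WT and 183 to 193 in Tc17 KO. The part of these markers in the GBP and IRG differences was not tested. Of the dendritic cell markers only H2-Ab1 was tested. It was bright on every array (8.69 to 9.59) and was not called (0.05). Of 3 CD4 T cell markers 2 were tested, Cd4 (4.57 to 5.83) and Zbtb7b (6.04 to 6.39), and neither was called. The measured natural killer and erythroid markers were all too dim to be tested.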

How the data were processed

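The authors deposited 1 log2 value per probe set and array and made them with RMA (background correction, normalization and probe summary) and Partek, per the submitters' processing notes. Software versions and the order of steps: not given in the sources used here. For arrays, the number of samples limits the precision.

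Of 41345 probe sets, 23521 had 1 gene symbol in the platform annotation, 1814 several and 16010 none as used here. The probe set with the highest mean was kept for each of 22180 genes. Each of the 9 measured members had 1 probe set. Genes with at least 1 group mean of 5 or more were tested (9862). The technical array of a group was averaged with biological replicate 2. A limma model (version 3.58.1, R 4.3.3; lmFit, contrasts.fit, eBayes) with 4 residual and 4.87 prior degrees of freedom covered all 8 samples and 6 contrasts, and the code was tested on simulated data. Adjusted p-values are from limma, two-sided, with Benjamini-Hochberg adjustment over all genes tested.

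Biological arrays of a group differed from each other with an SD of 0.144 to 0.192 over genes. The technical array differed from biological array 2 with an SD of 0.209 to 0.352 and from biological array 1 with 0.195 to 0.372. It was slightly closer to array 1 in Tc1 KO (0.287 against 0.292) and Tc17 KO (0.195 against 0.209). In Tc1 WT (0.252 against 0.247) and Tc17 WT (0.372 against 0.352) it was closer to array 2. The data.table package (1.17.8) read the tables, and promoters and figures were handled in Python 3.11.15 with pandas 2.3.3 and matplotlib 3.10.9. The members and gene lists were chosen with earlier results of these data known, so no list is independent evidence of its direction. The genes named were all members, the main interferon-gamma pathway genes, every called gene of the other GBP and IRG list, up to 4 of each other list with the largest absolute change in Tc17, and the 8 genes most like the members in profile, plus cell type markers. The alternatives changed the dim filter, the choice of probe set, the scaling (array medians, quantile, cyclic loess), the use of the technical arrays, a replicate block, the variance model and the samples fitted, and left out each sample in turn.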

Additional observations from a re-analysis of the deposited data

Results flagged for a closer look

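For each of the genes here, limma's test of the interaction found that the effect of STAT3 loss differed between Tc17 and Tc1 cultures, and the value given is the KO minus WT difference in Tc17 less that in Tc1 (log2, 2 samples a group). Among the GBPs and IRGs it was 1.22 for Gbp3, 1.08 for Gbp5, 0.94 for Igtp and 1.55 for Gm12250 (adjusted p = 0.036, 1.10 without the Tc17 WT technical array, called in 14 of 22 other analyses). Among the pathway genes and targets it was 2.50 for Ifng, -1.58 for Ifngr2, 0.62 for Irf1 (adjusted p = 0.049, called in 7 of 22 other analyses), 0.81 for Nlrc5, 0.88 for Psmb9 and 0.77 for Tap1 (called in 15 of 22). Among the markers of other cells it was 1.70 for Ighm, 0.74 for Cd79b (called in 15 of 22 other analyses) and -1.09 for Cd68. The Ighm value was 0.46 with its probe sets averaged (adjusted p = 0.062). Among the genes chosen for likeness to the GBP and IRG profile it was 1.18 for Utf1 and 0.99 for Abcb1b. Their choice by profile over these same 8 samples largely set this direction beforehand, so these values are descriptions. The cause of these differences was not tested.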

How the results depend on the processing

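The count of members called in Tc17 KO against Tc17 WT stayed between 4 and 7 over 23 alternatives, and in Tc17 WT against Tc1 WT between 4 and 6. In Tc1 it was 0 in all. Leaving out 1 sample at a time gave 5 to 7 and 4 to 6 in the first 2 comparisons, 2 to 5 in the interaction (3 in the main analysis), 0 to 3 in Tc17 KO against Tc1 KO (1) and 0 to 2 in Tc17 KO against Tc1 WT (0). The interaction count was 5 with the technical array averaged with biological replicate 1 or left out. In Tc17 KO against Tc1 KO the count was 2 with no dim filter, with arrays centred on the median of tested genes, with cyclic loess, with technical arrays left out, with them as samples of their own and array kind as a block, and with the Tc17 WT technical array left out. It was 0 with trend and robust variance and 3 with only the groups compared. In Tc17 KO against Tc1 WT it was 1 with no dim filter (Iigp1, higher), with arrays centred on the median of tested genes, with the technical array averaged with replicate 1, left out or as a sample of its own with array kind as a block, and with the Tc17 WT technical array left out, and 2 with only the groups compared. The causes were not tested. With a replicate block the count was 5 in the interaction, where Gbp7 (adjusted p = 0.041) and Irgm2 (0.027) were then called as well, 3 in Tc17 KO against Tc1 KO and 2 in Tc17 KO against Tc1 WT, and it did not change in the other comparisons. Replicate numbers were not taken as pairs: with 2 numbers a group, same-numbered samples deviated together with correlations of 0.098 to 0.455 over genes. The 0.455 was that of Tc1 WT with Tc1 KO. Tc17 WT with Tc17 KO had 0.099, and the highest of the other pairs was 0.160. No label says whether same-numbered WT and KO samples shared a culture. The sign of the Tc17 difference held in every alternative for all measured members but Gbp6. Genes near background, Gbp3 in Tc17 WT, Iigp1 and Gbp6, have differences that RMA narrows.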

Other observations

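The genes whose profile over the 8 samples was most like the mean centred profile of the members, among tested genes outside all lists, were Nasp (Pearson r = 0.998), Dennd1b, Utf1, Kif18b, Abcb1b, Arhgef18, Nudt21 and Usp1 (0.992 for the last). They were chosen for this likeness, and the 8 points share 4 groups, so the correlations and the differences that follow are descriptions. Utf1 was 1.52 and Abcb1b, a drug efflux pump, 1.04 higher in Tc17 KO than in Tc17 WT, and the other 6 were 0.33 to 0.56 higher.

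GBPs and IRGs are known to act together with the autophagy conjugation machinery and with inflammasomes. Of 11 listed genes of the ubiquitin-like conjugation pathway of autophagy, 10 were tested and 2 were higher in Tc17 KO than in Tc17 WT, Atg5 by 0.67 ± 0.13 (adjusted p = 0.0067) and Atg7 by 0.64 ± 0.13 (adjusted p = 0.0076), with a median of 0.13 against 0.11 over all genes. That share is near the 18.2% of all genes called higher in this comparison, so it is not a result about these genes. Neither remained called without Tc17 KO replicate 2 (adjusted p = 0.051 and 0.056), and Atg7 was also lost without Tc17 KO replicate 1 (0.050). Of 8 inflammasome genes, 5 were tested, and Casp4 fell by 0.82 ± 0.20 (adjusted p = 0.021). Aim2, a sensor of cytosolic DNA, was 0.44 ± 0.14 higher (adjusted p = 0.0496). With 18.2% of all genes called higher and 6.83% lower, 1 call each way in 5 genes is not a result about this list. Over 23 other analyses Casp4 was called in 18 (-1.23 to -0.55 over all of them) and Aim2 in 11 (0.32 to 0.51). The losses of Casp4 included those without Tc17 WT replicate 1 or either Tc17 KO replicate. Those of Aim2 included the omission of any 1 of the Tc17 samples. Casp1 was 0.59 ± 0.19 higher in Tc17 KO than in Tc17 WT (adjusted p = 0.052) and 1.33 lower in Tc17 WT than in Tc1 WT (adjusted p = 0.0018).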
